A study of Mus musculus with 6 samples.

Results

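The 10 genes described here carry glucose into epithelial cells from the blood side or decide, by the isoform a cell uses, how glycolysis starts and ends. They are the glucose transporter *Slc2a1*, the hexokinases *Hk1* and *Hk2*, the regulator *Pfkfb3*, the glyceraldehyde-phosphate dehydrogenase *Gapdh*, the pyruvate kinases *Pkm* and *Pklr*, the lactate dehydrogenases *Ldha* and *Ldhb* and the pyruvate dehydrogenase kinase *Pdk1*. They were chosen by name, and all 10 were found among the 32285 genes of the count matrices. RNA of single epithelial cells from mouse jejunum was measured in 6 libraries. All mice were male wildtype C57BL/6J animals about 30 weeks old, fed their diet over the 16 weeks that led up to surgery and again after it. They were collected 5 weeks after surgery, following an overnight fast. LFD sham mice (3 pooled) ate a low-fat diet and had a sham operation, HFD sham mice (3 pooled) ate a high-fat diet and had a sham operation, and HFD VSG mice (2 pooled) ate the high-fat diet and underwent vertical sleeve gastrectomy, a removal of much of the stomach. A crypt- and a villus-labelled library was made from each pool, so each diet and surgery condition had 1 library per compartment and no replicate.

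Hexokinase traps glucose in the cell as glucose-6-phosphate, the fructose-2,6-bisphosphate made by PFKFB3 speeds the next committed step, and pyruvate kinase ends glycolysis at pyruvate. Pyruvate then becomes lactate through lactate dehydrogenase or enters the mitochondrion as acetyl-CoA, a step that PDK1 holds back by phosphorylating pyruvate dehydrogenase. In the small intestine, crypts hold the stem cells, their dividing daughters and the granule-filled Paneth cells, while the villus is covered by enterocytes that take up dietary glucose through SGLT1 (*Slc5a1*) and pass it to the blood through GLUT2 (*Slc2a2*). GLUT1, the product of *Slc2a1*, is a widespread transporter that many epithelia carry on their basolateral side.

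Of 59457 called barcodes, 23578 passed filters, with medians of 8679 to 30356 UMIs (counted RNA molecules) per cell. Clusters were named by their markers, and stem-like cells numbered 38 to 388 per library, cycling progenitor-like cells 106 to 862, Paneth-like cells 29 to 217 and enterocyte-like cells 961 to 2622. The compartment labels ran opposite to these classes in all 3 conditions. The villus-labelled library held more stem-like, cycling progenitor-like and Paneth-like cells than the crypt-labelled one, and the crypt-labelled library held more enterocyte-like cells. In the names of libraries and compartments, crypts and villi are these labels only. Crypt and villus cells were therefore compared by class within each library. The levels below are UMIs of a gene per 1000000 UMIs of a class in a library (CPM), in the order LFD sham crypts, LFD sham villi, HFD sham crypts, HFD sham villi, HFD VSG crypts and HFD VSG villi wherever 6 values are given. Any pair of libraries shared 17 to 43 called barcodes. RNA freed from broken cells reached all droplets, and its share of the UMIs was estimated from immune-like cells at 0.0929 to 0.282 per library, above the fractions in the study's methods in 5 of 6 libraries. In HFD sham villi it rests on 10 immune-like cells. The free part of a gene's level is this share times the level in cell-free droplets. The same share was used for every class of a library, and whether it holds for classes with more UMIs per cell was not tested.

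The members differed in level between crypt cells and enterocytes. *Slc2a1*, *Hk2* and *Pdk1* were higher in stem-like and cycling progenitor-like cells than in enterocyte-like cells, and *Pfkfb3*, *Gapdh*, *Pkm*, *Pklr* and *Ldha* were lower. In stem-like cells 3 of the 8 members tested were higher, where 39.5% of all 11555 genes were, and 5 were lower, where 41.8% of all genes were. In cycling progenitor-like cells 3 of 9 were higher against 40.4% of 11767 genes, and 5 were lower against 40.9%. In Paneth-like cells 2 of 8, *Hk1* and *Hk2*, were higher against 33.8% of 10679 genes, and the same 5 genes as in the other crypt classes were lower against 33.2%. The calls came from edgeR's quasi-likelihood test of UMI sums within libraries with Benjamini-Hochberg adjustment over all genes. *Slc2a1* did not pass the filter on low counts in the Paneth-like contrast, nor *Hk1* in the stem-like one. Where either was called higher, it passed that filter through the crypt class, so these calls add no support beyond the levels. *Pfkfb3* passed it through the enterocyte-like class, where it was high, so its calls as lower add none either. The median log2 difference of the members was -2.10 in stem-like, -0.91 in cycling progenitor-like and -2.37 in Paneth-like cells, beside -0.04, -0.01 and 0.05 over all genes tested. The 6 libraries came from 3 mouse pools, so the p-values measure the spread between libraries rather than between mice.

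**Figure D1:**
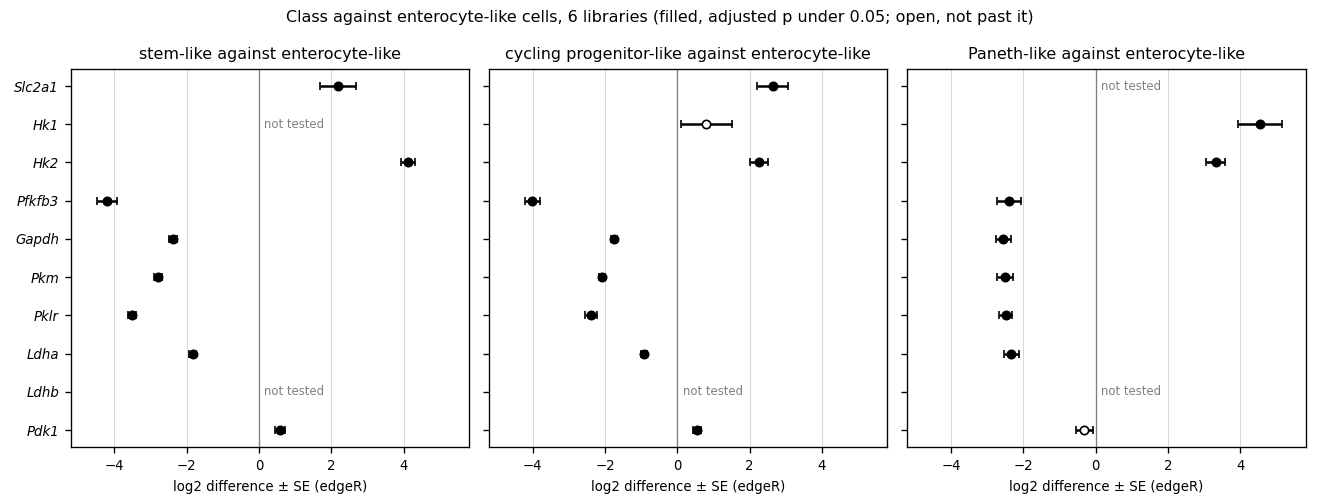
Log2 difference (x axis) of each member (y axis) between stem-like, cycling progenitor-like or Paneth-like cells and enterocyte-like cells of the same 6 libraries, as edgeR estimates with standard errors as bars; filled points passed an adjusted p of 0.05 and open points did not. *Hk2* lies to the right in all 3 panels, while *Pfkfb3*, *Gapdh*, *Pkm*, *Pklr* and *Ldha* lie to the left in all 3.

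The split of calls depends on how the libraries are scaled. With the scaling used (TMM), 4569 genes were higher and 4834 lower in stem-like cells, 4749 and 4818 in cycling progenitor-like cells and 3607 and 3549 in Paneth-like cells. With plain totals these became 6409 and 2985, 6870 and 2757, and 1060 and 7745, because the median gene then moved by 0.62, 0.58 and -1.47 on the log2 scale. Paneth markers made up 606890 to 663790 CPM of Paneth-like cells, which leaves other genes a small share of the total there. Each member called in these contrasts kept its direction and its call in every alternative processing in which it was tested, although sizes changed with free-RNA subtraction and with the scaling.

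The promoters were searched for 3 motifs of factors that act on glycolytic genes. RefSeq gives 16 start sites for the 10 genes (GRCm38.p6), and the 250 bases before each were read on both strands. The core of the hypoxia response element (ACGTG or GCGTG), bound by HIF factors, stood in 11 of the 16 windows and in 38.6% of all 32851 promoters. The E-box CACGTG, which contains this core and is bound by MYC and many other factors, stood in 2 of the windows and in 6.02% of all. The carbohydrate response element, a pair of E-box-like parts bound by ChREBP, stood in 1 member window, the second of *Pklr*, and in 0.0974% of all promoters (32 of 32851). The 5 windows shown are those of the 3 genes that were higher in stem-like and cycling progenitor-like cells, and those of the enterocyte-high *Ldha* and *Pklr*. Of the 8 windows of these genes, 1 per gene is shown, the one with a match or the most matches. They lie at chr4:119108495-119108744 (*Slc2a1*, plus strand), chr6:82774455-82774704 (*Hk2*, minus strand), chr2:71872974-71873223 (*Pdk1*, plus strand), chr7:46845554-46845803 (*Ldha*, plus strand) and chr3:89136373-89136622 (*Pklr*, plus strand). Each is printed 5′ to 3′ toward the start, and capitals mark the hypoxia response core on either strand, or the carbohydrate response element in *Pklr*.
Slc2a1: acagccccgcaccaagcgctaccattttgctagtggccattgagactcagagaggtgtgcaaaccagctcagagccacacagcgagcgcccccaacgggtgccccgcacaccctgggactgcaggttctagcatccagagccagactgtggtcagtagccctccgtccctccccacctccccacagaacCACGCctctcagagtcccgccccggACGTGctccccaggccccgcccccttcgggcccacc
Hk2: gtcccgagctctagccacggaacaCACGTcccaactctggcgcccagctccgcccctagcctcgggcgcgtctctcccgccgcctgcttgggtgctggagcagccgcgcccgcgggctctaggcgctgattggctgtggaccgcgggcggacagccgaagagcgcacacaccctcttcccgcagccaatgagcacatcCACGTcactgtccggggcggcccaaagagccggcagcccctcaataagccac
Pdk1: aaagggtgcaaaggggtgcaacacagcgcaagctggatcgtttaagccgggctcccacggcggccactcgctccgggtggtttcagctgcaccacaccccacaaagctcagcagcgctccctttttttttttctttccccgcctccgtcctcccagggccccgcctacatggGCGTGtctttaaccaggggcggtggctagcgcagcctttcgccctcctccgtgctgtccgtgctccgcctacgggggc
Ldha: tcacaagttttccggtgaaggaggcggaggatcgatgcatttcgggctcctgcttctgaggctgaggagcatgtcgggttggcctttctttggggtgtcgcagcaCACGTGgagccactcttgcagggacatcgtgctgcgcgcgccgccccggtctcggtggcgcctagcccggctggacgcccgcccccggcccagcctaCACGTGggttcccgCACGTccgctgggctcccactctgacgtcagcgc
Pklr: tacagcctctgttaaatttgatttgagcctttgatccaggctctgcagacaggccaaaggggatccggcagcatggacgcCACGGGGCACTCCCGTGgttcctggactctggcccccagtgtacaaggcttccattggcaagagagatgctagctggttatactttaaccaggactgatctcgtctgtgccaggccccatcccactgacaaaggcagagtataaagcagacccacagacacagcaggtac
Letters in capitals are matches only, not sites shown to be bound. Of 7 genes known to rise in low oxygen (*Vegfa*, *Adm*, *Bnip3*, *Egln3*, *Ankrd37*, *Ndrg1*, *Car9*), the summed level was 80.7 to 114 CPM in stem-like, 108 to 202 in cycling progenitor-like, 28.7 to 60.9 in Paneth-like and 255 to 348 in enterocyte-like cells.

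*Slc2a1* (chromosome 4, 119108711 to 119137983, plus strand, GRCm38), the gene of GLUT1, was low in crypt cells and lower still in enterocytes. In stem-like cells it stood at 4.75, 2.25, 3.85, 2.04, 4.43 and 5.47 CPM, from 2 to 64 UMIs per library. Enterocyte-like cells held 0.136, 0.574, 0.0501, 0.426, 0.242 and 1.57 CPM, so the ranges did not overlap and HFD VSG villi were the highest library of both classes. The difference was 2.18 ± 0.50 (log2, SE, n = 6 libraries; edgeR adjusted p = 1.63e-03). Cycling progenitor-like cells held 3.24 to 5.23 CPM, higher than enterocyte-like cells in 6 of 6 libraries, by 2.64 ± 0.42 (log2, SE; edgeR adjusted p = 2.42e-04). Paneth-like cells held 14 UMIs in all and none in 2 libraries, and the gene did not pass the filter on low counts there. In stem-like and cycling progenitor-like cells it passed this filter through the crypt class, as enterocyte-like cells held so little. The transporter was highest in tuft-like cells, rare chemosensory cells, at 15.2 to 52.9 CPM in 5 libraries, and next in mucus-making goblet-like cells at 15.3 to 29.9 CPM, which the tuft-like level exceeded in 4 of 5 libraries. Stem-like and cycling progenitor-like cells did not separate: the former were higher in 4 of 6 libraries. The free part of *Slc2a1* was 0.119 to 0.519 CPM, below both crypt classes in every library, while the enterocyte-like level exceeded it in 3 of 6, or in 5 of 6 with the free-RNA fractions of the study's methods.

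**Figure D2:**
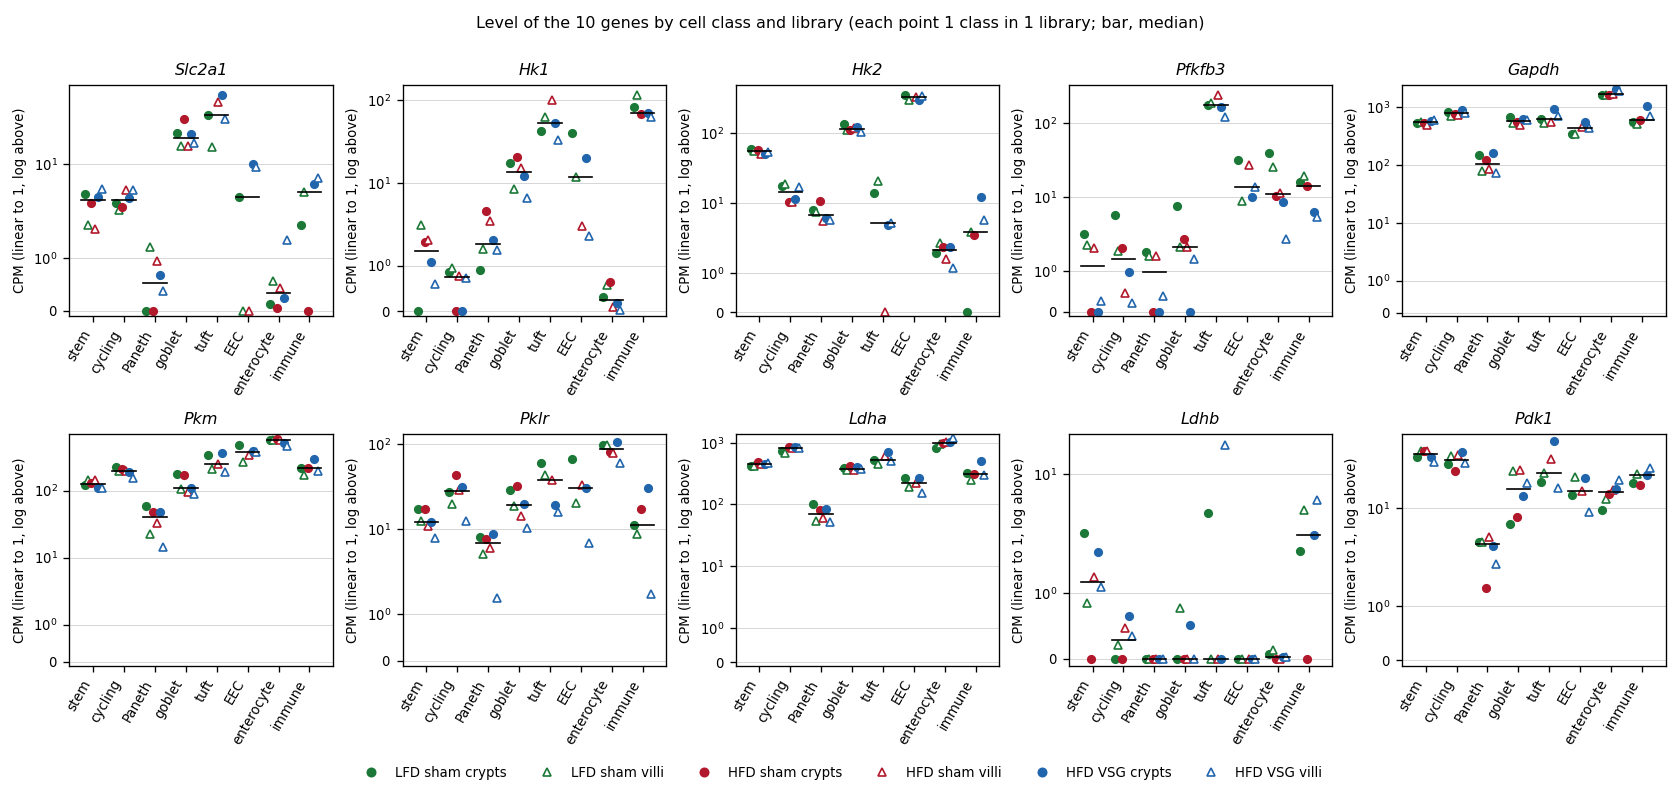
Level of each member in CPM (y axis, linear up to 1 and logarithmic above) in 8 cell classes (x axis), with 1 point per library in the colour of its condition, filled circles for crypts, open triangles for villi, and a bar at the median; classes with fewer than 20 cells in a library are left out. *Hk2* falls from EEC-like through goblet-like and stem-like to enterocyte-like cells, *Pfkfb3* stands out in tuft-like cells, and *Gapdh*, *Pkm*, *Pklr* and *Ldha* are lowest in Paneth-like cells.

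*Hk2* (chromosome 6, 82725025 to 82774454, minus strand), the inducible hexokinase that can dock on mitochondria, showed the largest rise of any member tested in stem-like cells. These held 58.6, 56.5, 57.8, 50.2, 50.3 and 54.4 CPM, while enterocyte-like cells held 1.94, 2.68, 2.40, 1.61, 2.35 and 1.19 CPM. Every stem-like value lay far above every enterocyte-like value, and the stem-like values were close to each other. The difference was 4.12 ± 0.19 (log2, SE, n = 6; edgeR adjusted p = 2.13e-09). Cycling progenitor-like cells fell between them at 17.7, 18.7, 10.5, 10.3, 11.6 and 16.9 CPM, higher than enterocyte-like cells by 2.26 ± 0.24 (adjusted p = 1.26e-05). Paneth-like cells held 5.65 to 10.7 CPM, higher by 3.32 ± 0.26 (adjusted p = 4.67e-08) with TMM and by 1.83 with plain totals. These levels rest on few UMIs, and 66.7% of the 9 in LFD sham crypts and 42.9% of the 7 in HFD sham crypts came from 1 cell. The highest levels of all were in hormone-secreting EEC-like cells at 295 to 346 CPM and goblet-like cells at 105 to 137 CPM. The order from EEC-like through goblet-like and stem-like to cycling progenitor-like cells held in every library that had the classes, 5 of 5 at the first step and 6 of 6 at the others. Cell-free droplets held 3.27 to 16.1 CPM of *Hk2*, more than enterocyte-like cells in all 6 libraries, and the enterocyte-like level exceeded the free part in 3 of 6, or in 5 of 6 with the fractions of the study's methods. The goblet marker sum was 378 to 2688 CPM in stem-like, 8581 to 13089 in Paneth-like, 255 to 650 in enterocyte-like and 90957 to 152960 CPM in goblet-like cells. Its part in the *Hk2* levels of stem-like and Paneth-like cells was not tested.

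Enterocytes were not uniform for *Hk2*. Of 5 enterocyte-like clusters, cluster 6 (1478 cells) carried the villus tip markers at a summed 9546 to 18023 CPM, against at most 2469 CPM in any other. Its *Hk2* level was 14.2, 20.3, 17.5, 32.3, 18.9 and 16.8 CPM, while the other enterocyte-like cells held 0.640 to 1.18 CPM. The tip-marked cells were higher in 6 of 6 libraries, by 4.11 to 5.13 on the log2 scale, and this cluster held 195 of the class's 328 *Hk2* UMIs. Their *Hk2* level lay above that of cycling progenitor-like cells in 4 of 6 libraries, at 0.799 to 3.13 times it. *Gapdh*, *Ldha* and *Pdk1* went the other way and were lower in the tip-marked cells in 6 of 6 libraries: *Gapdh* held 851 to 1630 CPM against 1657 to 2115 in the other enterocyte-like cells, and *Pdk1* 3.27 to 11.4 against 9.98 to 19.4. *Pkm* was lower in 5 of 6 libraries and *Pklr* higher in 4 of 6. These are comparisons of a cluster with the rest of its class and carry no test. The tip-marked cells were shallow, at a mean of 5193 to 18495 UMIs per cell against 10627 to 43475 in the other enterocyte-like clusters, and held more of the genes that mark damaged droplets (*Gm42418*, *Gm26917*, *Lars2*, *AY036118*; 17524 to 177110 CPM against 9517 to 84792). Their goblet marker sum was 619 to 2690 CPM against 230 to 668 in the other clusters, and the part of both in the *Hk2* difference was not tested.

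**Figure D3:**
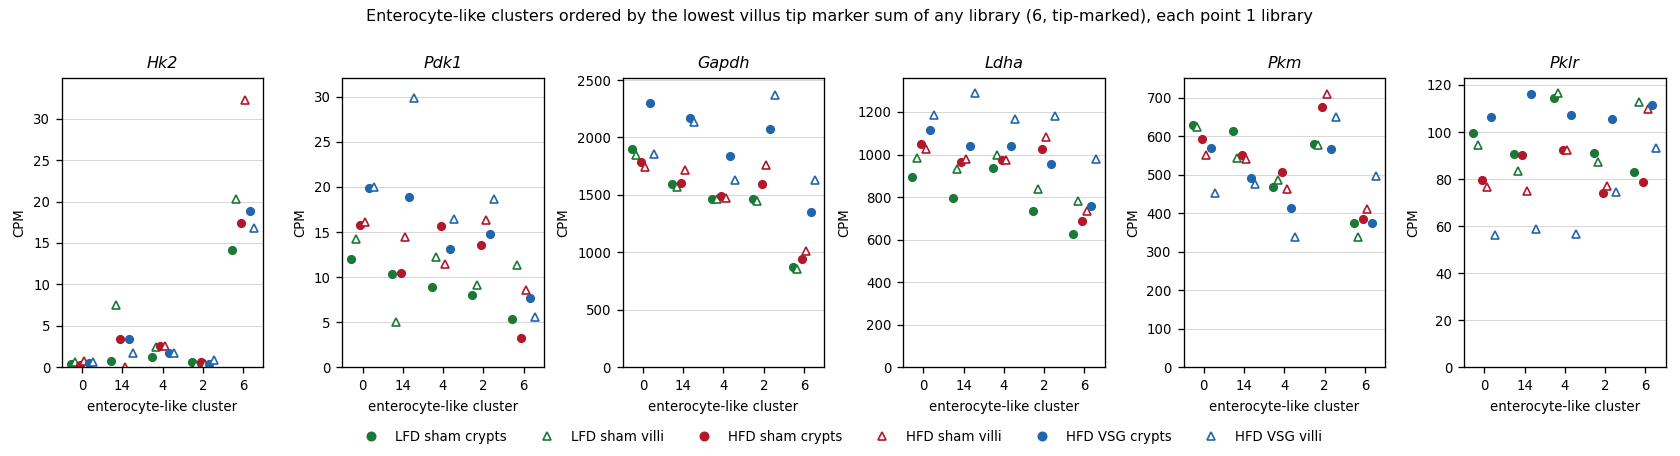
Level in CPM (y axis, from 0) of 6 members in the 5 enterocyte-like clusters (x axis, cluster numbers ordered by villus tip marker sum), 1 point per library with filled circles for crypts and open triangles for villi. *Hk2* is at 14.2 to 32.3 CPM in the tip-marked cluster 6 and at 7.57 CPM or less in every other cluster, while *Gapdh*, *Ldha* and *Pdk1* tend lower there.

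*Hk1* (chromosome 10, 62268855 to 62379908, minus strand), the hexokinase of most resting tissues, was nearly absent from the absorptive lineage. Enterocyte-like cells held 42 UMIs in all (0.0297 to 0.651 CPM), and their level exceeded the free part in 1 of 6 libraries, or in 4 of 6 with the free-RNA fractions of the study's methods. The tip-marked cluster 6 held 20 of these UMIs, at 1.06, 1.62, 5.46, 0, 1.28 and 0 CPM. This range overlaps the Paneth-like one given next. Paneth-like cells held 33 UMIs, at 0.895, 1.61, 4.57, 3.45, 2.03 and 1.53 CPM, above the range of the whole enterocyte-like class in every library and above the free part in 6 of 6. The difference was 4.53 ± 0.61 (log2, SE; edgeR adjusted p = 8.49e-06), or 3.10 with plain totals. *Hk1* passed the filter on low counts there through the Paneth-like cells, where it was high. Goblet markers summed to 8581 to 13089 CPM in Paneth-like cells, and their part in this *Hk1* level was not tested. In stem-like cells 24 UMIs gave 0 to 3.09 CPM and did not pass the filter on low counts, and in cycling progenitor-like cells the difference did not pass the test (0.81 ± 0.70, adjusted p = 0.311). The gene belonged to other lineages: immune-like cells held 62.4 to 115 CPM, tuft-like cells 33.5 to 101.7 and goblet-like cells 6.64 to 20.4.

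The share of each hexokinase varied between lineages. *Hk2* made up 94.8% to 100% of *Hk1* and *Hk2* UMIs in stem-like cells, 93.1% to 100% in cycling progenitor-like, 84.7% to 94.1% in goblet-like and 89.5% to 99.3% in EEC-like cells. In enterocyte-like cells it made up 78.7% to 97.6%, in Paneth-like cells 62.1% to 90.0%, in tuft-like cells 0% to 25.0% and in immune-like cells 0% to 14.8%. The stem-like share was above the enterocyte-like share in 6 of 6 libraries, with p = 0.03125 in an exact two-sided sign-flip permutation test over libraries, the smallest p that 6 libraries can give. After Benjamini-Hochberg adjustment over the 9 shares and classes tested it was 0.0703, which did not pass 0.05. None of the 9 passed, and 4 had an unadjusted p under 0.05. For *Hk2* the Paneth-like share lay below the enterocyte-like one in 5 of 6 libraries, of which LFD sham villi turned with the 0.5 added to each count (exact permutation p = 0.125).

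**Figure D4:**
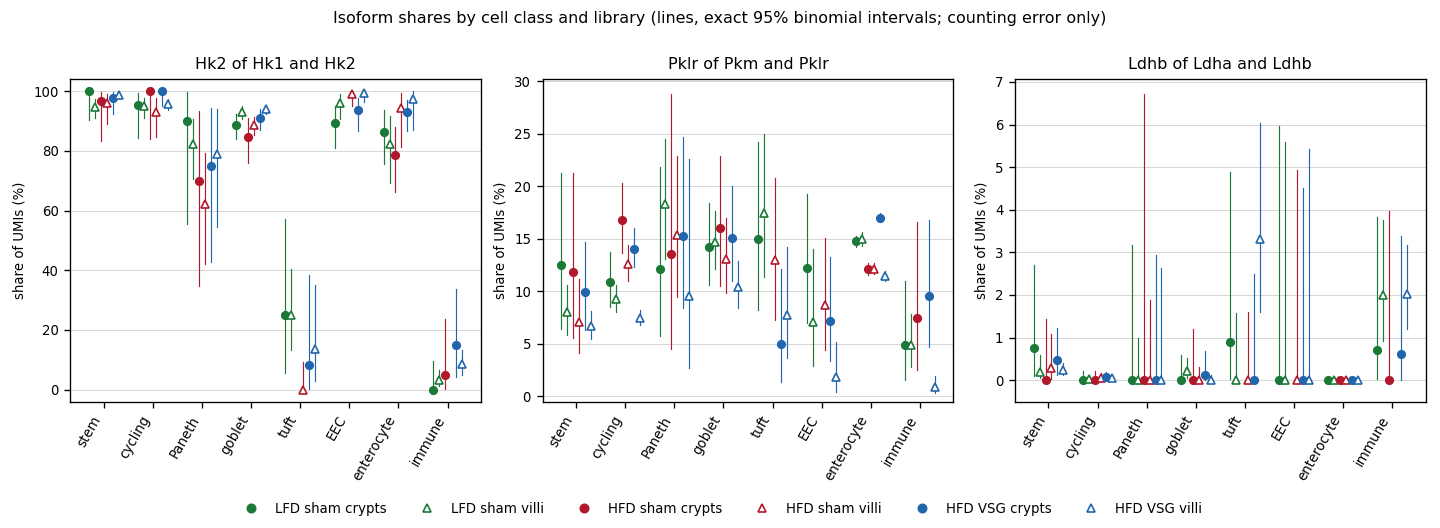
Share of UMIs in percent (y axis) of *Hk2* in *Hk1* and *Hk2*, *Pklr* in *Pkm* and *Pklr* and *Ldhb* in *Ldha* and *Ldhb* by cell class (x axis), 1 point per library with exact 95% binomial intervals as lines. Tuft-like and immune-like cells sit at 25.0% or less for *Hk2* while the other classes sit at 62.1% or more, and *Pklr* stays at 18.3% or less in every class.

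*Pfkfb3* (chromosome 2, 11471433 to 11554077, minus strand), whose enzyme makes the activator of phosphofructokinase, was close to 0 in crypt cells. Stem-like cells held 3.17, 2.25, 0, 2.04, 0 and 0.256 CPM from 16 UMIs, and enterocyte-like cells 38.7, 25.5, 10.4, 11.4, 8.51 and 2.67 CPM from 2463 UMIs. Within each library the enterocyte-like value was higher, although the ranges overlapped at the low value of HFD VSG villi. The difference was -4.19 ± 0.27 in stem-like and -4.01 ± 0.21 in cycling progenitor-like cells (log2, SE; edgeR adjusted p = 3.68e-08 and 9.38e-08), and -2.40 ± 0.33 in Paneth-like cells. *Pfkfb3* passed the filter on low counts through the enterocyte-like cells, where it was high, so these p-values add no support beyond the levels. Stem-like cells exceeded the free part in 2 of 6 libraries and Paneth-like cells in 2 of 6, and in 4 of 6 each with the fractions of the study's methods. Of the 13 UMIs in cycling progenitor-like cells of LFD sham crypts, 84.6% came from 1 cell. Tuft-like cells stood apart with 178, 187, 236, 164 and 120 CPM in the 5 libraries that held at least 20 of them (all but HFD sham crypts).

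*Gapdh* (chromosome 6, 125161715 to 125166467, minus strand), the enzyme of the step that yields the first NADH of glycolysis and a frequent reference gene, was the most abundant member in most classes and far from constant. Enterocyte-like cells held 1582, 1603, 1596, 1696, 2049 and 1904 CPM and stem-like cells 537, 553, 520, 478, 577 and 596 CPM. The groups did not overlap, and the difference was -2.37 ± 0.11 (log2, SE; edgeR adjusted p = 2.91e-09). Cycling progenitor-like cells held 706 to 884 CPM (-1.75 ± 0.09, adjusted p = 1e-07) and Paneth-like cells 71.9 to 158 CPM (-2.55 ± 0.22, adjusted p = 1.05e-07). In Paneth-like cells the levels of *Gapdh*, *Ldha*, *Pkm* and *Pklr* were below the free part in all 6 libraries. A level cannot lie below the free RNA it contains, so the immune-based share was too large for these cells. With the fractions of the study's methods, each of these 4 exceeded the free part in 4 of 6 libraries. Whether they stood above free RNA thus depends on the fraction used. *Gapdh* and *Ldha* have near-identical processed copies elsewhere in the genome, and their counts are uncertain to the extent that reads were lost to those copies.

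Both pyruvate kinase genes were higher in enterocytes. *Pkm* (chromosome 9, 59656368 to 59679375, plus strand), whose splice forms PKM1 and PKM2 cannot be told apart in these 3′ counts, held 562, 562, 582, 573, 522 and 464 CPM in enterocyte-like and 122, 142, 129, 143, 110 and 110 CPM in stem-like cells. *Pklr* (chromosome 3, 89136142 to 89146784, plus strand), the kinase of liver and red cells, held 97.3, 98.9, 80.4, 79.5, 107 and 60.1 CPM in enterocyte-like and 17.4, 12.4, 17.3, 10.9, 12.2 and 7.86 CPM in stem-like cells. Neither gene's ranges overlapped. The differences were -2.79 ± 0.10 for *Pkm* and -3.51 ± 0.11 for *Pklr* in stem-like cells, and -2.08 ± 0.08 and -2.38 ± 0.16 in cycling progenitor-like cells (log2, SE; edgeR adjusted p at most 4.54e-07). The *Pklr* level in stem-like cells exceeded the free part in 3 of 6 libraries and the *Pkm* level in 4 of 6, or each in 5 of 6 with the fractions of the study's methods. *Pklr* made up 11.5% to 17.0% of both in enterocyte-like, 6.68% to 12.5% in stem-like and 7.46% to 16.8% in cycling progenitor-like cells. *Pkm* led in every class. The stem-like share of *Pklr* was lower than the enterocyte-like one in 6 of 6 libraries. With the 0.5 added to each count, which turned HFD sham crypts, the difference in log odds had an exact permutation p of 0.0625 (adjusted p = 0.1125). With the shares in percent and nothing added, a setting chosen after seeing the data, it was 0.03125 (adjusted p = 0.14062), so the difference did not pass 0.05 after adjustment either way.

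Lactate dehydrogenase was nearly all *Ldha* (chromosome 7, 46841475 to 46855627, plus strand), the form that favours lactate. It held 821, 940, 995, 1025, 1012 and 1182 CPM in enterocyte-like cells and 416, 413, 495, 454, 456 and 473 CPM in stem-like cells, without overlap. The difference was -1.83 ± 0.10 (log2, SE; edgeR adjusted p = 5.47e-09). Cycling progenitor-like cells came nearer at 744, 672, 868, 834, 844 and 832 CPM (-0.91 ± 0.09, adjusted p = 5.99e-06; -0.31 with plain totals), and their range overlapped that of enterocyte-like cells although they were lower in each library. *Ldhb* (chromosome 6, 142490249 to 142507957, minus strand), the form of heart muscle, was barely detected. It gave 24 of 9042 lactate dehydrogenase UMIs in stem-like cells, 20 of 46528 in cycling progenitor-like cells, 6 of 166231 in enterocyte-like cells and 0 of 990 in Paneth-like cells. It did not pass the filter on low counts in any class contrast. In stem-like cells it stood at 3.17, 0.843, 0, 1.36, 2.21 and 1.11 CPM, above the free part in 5 of 6 libraries. The share test gave p = 0.03125 (exact permutation; adjusted p = 0.0703) for all 3 crypt classes, but this rested on the 0.5 added to counts of 0 in smaller totals. With nothing added, the *Ldhb* share was higher than in enterocyte-like cells in 5 of 6 libraries of stem-like cells, 4 of 6 of cycling progenitor-like cells and 0 of 6 of Paneth-like cells (exact permutation p = 0.0625, 0.125 and 0.125; adjusted p = 0.16071 for each). Immune-like cells held 29 *Ldhb* UMIs of 1738 and tuft-like cells 11 of 1019, of which 10 were in HFD VSG villi with 70% of those in 1 cell.

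*Pdk1* (chromosome 2, 71873224 to 71903858, plus strand), a brake on pyruvate entry into mitochondria, was higher in the dividing crypt. The other kinases of this family, *Pdk2*, *Pdk3* and *Pdk4*, went the other way. Each was higher than in enterocyte-like cells in 0 of 6 libraries, both in stem-like and in cycling progenitor-like cells. For *Pdk2*, stem-like cells held 12.7 to 30.8 CPM and enterocyte-like cells 29.2 to 61.3. For *Pdk4* these were 1.93 to 22.5 and 15.5 to 64.0. Stem-like cells held 33.3, 37.9, 38.5, 38.03, 33.2 and 29.6 CPM and cycling progenitor-like cells 28.1, 33.8, 24.1, 34.6, 37.6 and 28.8 CPM. Enterocyte-like cells held 9.53, 12.4, 13.9, 15.4, 15.7 and 19.2 CPM, below both in every library. The differences were 0.58 ± 0.13 (log2, SE; edgeR adjusted p = 1.26e-03) and 0.54 ± 0.11 (adjusted p = 1.22e-03) with TMM and 1.26 with plain totals in stem-like cells. In Paneth-like cells *Pdk1* stood at 1.52 to 5.02 CPM, below the enterocyte-like level in 6 of 6 libraries, yet with TMM the difference was -0.31 ± 0.23 (adjusted p = 0.236). It passed as lower in 4 alternatives, with plain totals (-1.86, edgeR adjusted p = 1.04e-06), immune-based free-RNA subtraction (-1.45, 0.0264), no filter on low counts (-0.69, 0.0139) and the joint fit of all epithelial classes (-0.53, 0.0292).

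The rest of the pathway also leaned toward enterocytes. Of 48 other genes of glucose transport, glycolysis, pyruvate entry, lactate transport and their regulators, 41 were tested in stem-like cells, of which 6 were higher and 31 lower, beside 39.5% and 41.8% of all genes. The list's median log2 difference there was -1.24, beside -0.04 over all genes. In cycling progenitor-like cells 6 of 41 were higher and 27 lower, beside 40.4% and 40.9% (median -0.88, beside -0.01). In Paneth-like cells 2 of 42 were higher and 35 lower, beside 33.8% and 33.2% (median -1.41, beside 0.05). These counts are with TMM. With plain totals 12 genes were higher and 23 lower in stem-like cells (median -0.55, beside 0.62 over all genes), 14 and 21 in cycling progenitor-like cells (median -0.30, beside 0.58) and 2 and 38 in Paneth-like cells (median -2.93, beside -1.47). All 3 hexose transporters tested were lower in each crypt class. In stem-like cells the largest falls were *Slc2a2*, the basolateral GLUT2 (-6.10 ± 0.27), *Slc2a5*, the fructose transporter GLUT5 (-5.70 ± 0.13), and *Slc16a3*, the lactate exporter MCT4 (-4.92 ± 0.22). *Slc2a2* held 232 to 872 CPM in enterocyte-like and 1.54 to 36.4 CPM in stem-like cells, so *Slc2a1* and *Slc2a2* ran in opposite directions between these classes. The largest rises were *Myc*, a driver of growth and of glycolytic genes (6.24 ± 0.41), *Pdp1*, the phosphatase that opposes PDK1 (0.90 ± 0.37), and *Tigar*, which lowers fructose-2,6-bisphosphate (0.58 ± 0.20). The calls of the last pair were fragile. That of *Pdp1* was lost in 10 of the alternatives, among them leaving out LFD sham villi (0.67, edgeR adjusted p = 0.158), HFD sham crypts (0.90, 0.0654), HFD sham villi (0.94, 0.0673) or HFD VSG villi (0.68, 0.157). That of *Tigar* was lost in 3, with no filter (0.47), sums of 3 pools (0.41) or without LFD sham crypts (0.41, edgeR adjusted p = 0.0525). *Myc* held 50.6 to 84.0 CPM in stem-like and 0.10 to 1.91 CPM in enterocyte-like cells.

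In cycling progenitor-like cells the pattern was much the same, with *Slc2a2* (-5.96 ± 0.39), *Slc16a3* (-4.67 ± 0.23) and *Slc5a1* (-4.24 ± 0.21) the lowest and *Myc* (5.12 ± 0.39), *Slc16a1*, the lactate carrier MCT1 (0.76 ± 0.09), and *Tigar* (0.73 ± 0.11) the highest. Paneth-like cells were lowest in *Slc2a2* (-3.40 ± 0.41), *Slc5a1* (-3.33 ± 0.40) and the phosphofructokinase *Pfkp* (-3.29 ± 0.25). They were higher only in *Myc* (4.01 ± 0.45) and *Slc16a7*, the monocarboxylate carrier MCT2. *Slc16a7* held 15.7 to 38.9 CPM in Paneth-like cells (416 UMIs) and at most 0.510 CPM in enterocyte-like cells (14 UMIs), with no fold given because several enterocyte-like sums were 0.

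Across 45 sums of a class in a library, which share libraries, cells' depth and free RNA, some members ran with each other and with genes outside the pathway. The sums include the Paneth-like ones, where Paneth markers took 606890 to 663790 CPM and left other genes a small share of the total. The part of this in the correlations was not tested. Over log2(CPM + 1), *Ldha* and *Gapdh* had a Pearson correlation of 0.943 and *Pkm* and *Gapdh* one of 0.845, while *Hk2* reached at most 0.248 with any other member. Of 8533 genes with a mean of at least 10 CPM, those most like *Hk2* were *Rasa4*, *Agr3* and *Wnk4* (0.908, 0.903 and 0.898). Those most like *Pklr* were the brush-border gene *Vil1*, *Lap3* and *Itga3* (0.942, 0.928 and 0.919), and those most like *Ldha* included the mitochondrial genes *Sdhb* and *Acadm* (0.967 and 0.963). *Gapdh* ran with *Slc25a5*, *Map2k2* and *Eno1* (0.957, 0.954 and 0.954) and *Pkm* with *Gnb1*, *Pink1* and *Tmem19* (0.947, 0.940 and 0.937). *Pdk1* was most like *Oxa1l*, *Tars2* and *Mrps25* (0.910, 0.909 and 0.906), which act in mitochondrial protein making or insertion. For *Hk1* they were *Rgs2*, *Nfatc1* and *Iqsec1* (0.898, 0.881 and 0.880), for *Pfkfb3* *Suco*, *Svil* and *Abhd2* (0.878, 0.860 and 0.853) and for *Slc2a1* *Srp19*, *Fdft1* and *Dpm2* (0.847, 0.845 and 0.835). *Ldhb*, with a mean of 1.13 CPM, reached only 0.649 with *Gimap9*, 0.644 with *Gpr18* and 0.621 with *AU020206*.

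Diet and surgery were compared within a class and compartment between single libraries, so differences are given with exact 95% intervals that cover counting error only and with no test. *Pfkfb3* in enterocyte-like cells had the largest ratio of any counted member in both comparisons. HFD sham cells held 10.4 CPM in crypts and 11.4 in villi against 38.7 and 25.5 in LFD sham cells, log2 ratios of -1.89 (95% interval -2.11 to -1.68) and -1.17 (-1.40 to -0.93). It was lower in HFD sham than LFD sham in each of the 3 largest enterocyte-like clusters in both compartments, for example 12.7 against 56.8 CPM in cluster 2 of the crypt libraries. From HFD sham to HFD VSG it was lower again, with log2 ratios of -0.29 (-0.54 to -0.04) in crypts and -2.09 (-2.45 to -1.73) in villi. Cell-free droplets moved alongside, at 33.0, 10.5, 7.09, 4.25, 3.27 and 2.19 CPM of *Pfkfb3*, and the part of this in the cells' difference was not tested. With cells of at most 10% mitochondrial UMIs the HFD sham to LFD sham ratios were -1.0 and -0.55. In enterocyte-like cells, 6.3% of genes were higher and 8.6% lower by more than 0.5 on the log2 scale in HFD sham crypts, and 7.11% and 9.63% in HFD sham villi.

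Other members moved less between the diets. *Pdk1* in enterocyte-like cells was at 13.9 CPM in HFD sham against 9.53 in LFD sham crypts, a log2 ratio of 0.54 (0.30 to 0.79), and at 0.32 in villi. *Hk2* in cycling progenitor-like cells was lower in HFD sham in both compartments, with log2 ratios of -0.75 (-1.58 to 0.04) in crypts and -0.86 (-1.29 to -0.45) in villi, and *Pklr* was higher by 0.64 (0.16 to 1.13) and 0.53 (0.23 to 0.82). With immune-based free-RNA subtraction these *Pklr* ratios were 2.13 and 1.55. The class pools 2 clusters, and cluster 11, with more *Hk2* and less *Pklr*, made up 23.6% of it in LFD sham and 21.8% in HFD sham crypts, and 33.4% and 19.6% in villi. Within cluster 5, *Hk2* was at 7.57 CPM in HFD sham against 12.6 in LFD sham crypts and at 6.04 against 17.6 in villi, and *Pklr* at 48.9 against 31.5 and 33.05 against 23.4. Within cluster 11 of the villus libraries *Hk2* was at 24.1 against 20.4 CPM and *Pklr* at 14.99 against 14.9. In that class 7.71% of genes were higher and 7.39% lower in crypts, and 8.42% and 10.7% in villi. In stem-like cells none of the counted members, 5 in crypts and 6 in villi, lay beyond 0.5 between the diets. Over all genes of stem-like cells 9.02% were higher and 8.46% lower by that size in crypts, and 6.34% and 6.09% in villi. The stem-like *Hk2* ratios were -0.02 in crypts and -0.17 in villi. Over all classes, 13 of the 71 member ratios with a mean of at least 20 UMIs lay beyond 0.5, 8 of them higher and 5 lower in HFD sham, and 9 of the 13 had an interval without 0. No share of all genes is given for intervals without 0, so the count of 9 says nothing about the members as a set. With the free-RNA fractions of the study's methods subtracted, 26 of 67 lay beyond 0.5 (38.8%, beside 23.9% of all genes' ratios). Without subtraction, over all genes of all classes, 9.13% of ratios were higher and 9.07% lower by that size.

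**Figure D5:**
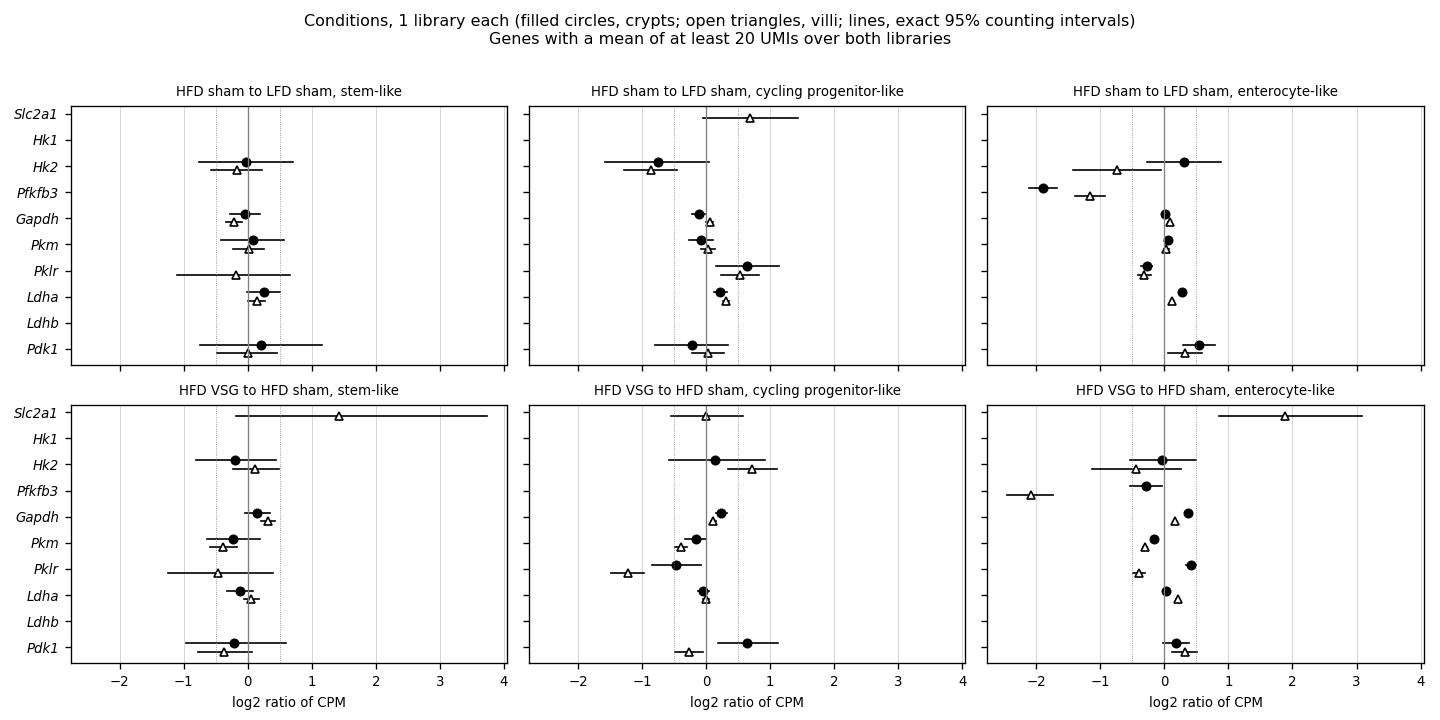
Log2 ratio of CPM (x axis) of each member (y axis) for HFD sham to LFD sham (top) and HFD VSG to HFD sham (bottom) in stem-like, cycling progenitor-like and enterocyte-like cells, with filled circles for crypts, open triangles for villi, exact 95% counting intervals as lines and dotted lines at 0.5 and -0.5. *Pfkfb3* in enterocyte-like cells lies left of -1 in both compartments for the diets. No stem-like ratio that was counted (5 in crypts and 6 in villi) lies beyond the dotted lines for the diets. Of all genes of stem-like cells 9.02% lie right and 8.46% left of these lines in crypts, and 6.34% and 6.09% in villi.

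Between HFD VSG and HFD sham, *Slc2a1* in enterocyte-like cells of the villus libraries was at 1.57 CPM (53 UMIs) against 0.426 (9 UMIs), a log2 ratio of 1.89 (0.85 to 3.09), where 19.4% of all genes were higher and 16.9% lower by more than 0.5. With the free-RNA fractions of the study's methods subtracted, the HFD sham count fell under the floor of 3 UMIs. The *Slc2a1* ratio of 3.16 in that setting was set by the floor. Cell-free droplets held 4.59 CPM of *Slc2a1* in HFD VSG villi and 2.13 in HFD sham villi, and the part of this in the cells' difference was not tested. *Hk2* in cycling progenitor-like cells was at 16.9 against 10.3 CPM in villi, 0.71 (0.35 to 1.10), and at 0.14 in crypts. *Pklr* in the same cells was lower, with log2 ratios of -1.23 (-1.48 to -0.97) in villi and -0.46 in crypts. Cluster 11 made up 29.4% of this class in HFD VSG and 19.6% in HFD sham villi. Within cluster 5 of the villus libraries *Hk2* was at 12.02 against 6.04 CPM and *Pklr* at 14.3 against 33.05, and within cluster 11 at 25.8 against 24.1 and at 8.58 against 14.99. In the class as a whole 7.99% of genes were higher and 34.2% lower in villi, with a median shift of -0.26 over all genes, and with TMM-scaled totals the *Pklr* ratio was -0.90. Tuft-like cells of the villus libraries had less *Pfkfb3* (120 against 236 CPM, -0.97, -1.45 to -0.50) and *Hk1* (33.5 against 101.7 CPM, -1.60, -2.48 to -0.77), where 20.8% of genes were higher and 27.9% lower. Goblet-like cells of the same libraries also had less *Hk1*, at 6.64 against 15.04 CPM (-1.18, -1.77 to -0.59), where 6.37% of genes were higher and 30.2% lower and the median over all genes was -0.25. In all, 14 of 69 counted ratios lay beyond 0.5, 4 of them higher and 10 lower in HFD VSG, beside 10.9% higher and 21.6% lower over all genes of all classes, and 11 of the 14 had an interval without 0. As between the diets, no share of all genes is given for such intervals, so the count of 11 says nothing about the members as a set. With the fractions of the study's methods subtracted, 27 of 67 lay beyond 0.5 (40.3%, beside 37.9% of all genes' ratios).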

How the data were processed

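Single jejunal epithelial cells were measured with the 10x Genomics 3′ kit in 6 libraries. Per the labels and the submitters' processing notes, reads were processed with Cell Ranger 6.0.0 on mm10, and the authors deposited whole-number UMI counts per gene and barcode, with no scaling or free-RNA subtraction (counts of called barcodes were equal in the full and the filtered matrices).

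Cells were kept at 750 genes or above and at no more than 20% of UMIs from mitochondrial genes, and the highest doublet scores were removed (0.8% per 1000 called barcodes). Integration across libraries ran in R 4.3.3 (Matrix 1.6.5), after sctransform 0.4.2, by Seurat 5.3.0 on 1988 of 2000 variable genes, leaving out 2 members and 10 pathway genes, with 30 components and resolution 0.4. Clusters took the class with more than 50% of its markers at 2 times the median cluster and in at least 10% of cells. Another 4 clusters met no class or were led by damaged-droplet genes and were not used here. Of these, cluster 1 was large, with 82555 *Ldha* UMIs beside 80942 in enterocyte-like cluster 0. Its median *Hk2* was 2.37 CPM, beside 0.58 in cluster 0 and 10.9 in cycling progenitor-like cluster 5, and its *Slc2a2* 176 beside 495 and 19.7. The class contrasts thus leave out cells with levels in between. Cluster 17, in 2 libraries, had median *Ldha* and *Gapdh* of 1734 and 2249 CPM.

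UMIs were summed by class and library (at least 20 cells). Classes were compared with edgeR 4.0.16 (filterByExpr, TMM, quasi-likelihood test, library as block), with DESeq2 1.42.0, plain totals, sums of 3 pools, a joint fit, no filter, other cell filters, resolution 0.8, free-RNA subtraction and leaving out each library as alternatives. In simulated counts for the stem-like contrast (12029 genes), 99% of 2-fold and 64% of 1.5-fold changes were called. Shares used 0.5 added to each count. Ratios between conditions were counted where both libraries averaged 20 UMIs, with exact 95% intervals, and sums under 3 UMIs were set to 3 (the limit that a count of 0 allows). Promoters were taken from RefSeq (GRCm38.p6, 10 of 10 genes matched) and gene positions from GENCODE vM21.

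Members and lists were chosen with earlier results of these data known. The text names all members, the 3 called pathway genes with the largest rise and fall per class contrast, and the 3 genes most like each member, of which 1 is not reported here. The other steps ran in Python 3.11.15 with scikit-learn 1.9.0, pandas 2.3.3, numpy 2.4.6, matplotlib 3.10.9 and scipy 1.17.1.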

Additional observations from a re-analysis of the deposited data

Results flagged for a closer look

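A total of 3 members had ratios of opposite sign in the crypt and villus libraries of one class, with counting intervals on either side of 0. The differences between compartments were not tested, and each ratio rests on 1 library per condition. No share of all genes is given for this rule, so the count of 3 says nothing about the members as a set. *Gapdh* in cycling progenitor-like cells, HFD sham to LFD sham, was at -0.11 (95% interval -0.21 to -0.01) in crypts and 0.06 (0.00 to 0.11) in villi. *Pdk1* in cycling progenitor-like cells, HFD VSG to HFD sham, was at 0.64 (0.19 to 1.12) in crypts and -0.27 (-0.48 to -0.05) in villi, where the median gene moved by -0.26. *Pklr* in enterocyte-like cells, HFD VSG to HFD sham, was at 0.41 (0.33 to 0.49) in crypts and -0.40 (-0.50 to -0.31) in villi.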

How the results depend on the processing

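Of the members tested in the class contrasts, every call kept its direction and its side of the threshold under each alternative that tested it, but sizes moved. With immune-based free-RNA subtraction the stem-like differences were 3.54 for *Slc2a1*, 6.24 for *Hk2*, -6.36 for *Pfkfb3*, -5.01 for *Pkm*, -5.94 for *Pklr* and -3.29 for *Gapdh*, and the cycling progenitor-like ones 3.97 for *Slc2a1*, 4.42 for *Hk2*, -9.05 for *Pfkfb3*, -2.79 for *Pkm* and -3.28 for *Pklr*. Some of these sizes rest on sums that the subtraction took to 0, where a level did not exceed the free part. Enterocyte-like cells exceeded the free part of *Slc2a1* and of *Hk2* in 3 of 6 libraries. Stem-like cells exceeded that of *Pfkfb3* in 2 of 6, of *Pklr* in 3 of 6 and of *Pkm* in 4 of 6. Cycling progenitor-like cells exceeded that of *Pfkfb3* in 3 of 6. The sizes of these genes are no bounds. In Paneth-like cells, for which the immune-based share was too large, the subtraction took *Gapdh*, *Ldha*, *Pkm* and *Pklr* to 0 UMIs. A fitted size is no bound there. The *Hk2* difference in these cells went to 5.82. *Pdk1* in Paneth-like cells passed the threshold as lower with immune-based free-RNA subtraction (-1.45), plain totals (-1.86), no filter (-0.69) and the joint fit (-0.53). *Hk1* and *Ldhb* entered the stem-like count of higher members, making it 5 of 10 tested, with DESeq2 (35.5% of all genes higher), no filter (25.8%) and sums of 3 pools (39.4%). *Slc2a1* in Paneth-like cells was tested in 4 alternatives and was higher with DESeq2 (2.12), the joint fit (2.27) and sums of 3 pools (2.39), but with no filter missed the threshold (1.62, adjusted p = 0.0508). Plain totals moved sizes too, for example *Ldha* in cycling progenitor-like cells to -0.31. The Paneth-like count of higher members fell to 1 of 6 tested with at most 10% mitochondrial UMIs (33.2% of all genes higher). It was 1 of 7 at resolution 0.8 (33.1%) and with free-RNA subtraction by the study's (28.8%) or the immune-based fractions (19.9%). In these alternatives *Hk1* had too few UMIs to test. At resolution 0.8 the tip-marked cells left the enterocyte-like class, and the *Hk2* difference in stem-like cells was 5.31. Ratios beyond 0.5 between the diets numbered 8 of 69 at resolution 0.8 (17.2% of all genes) and 26 of 67 with the study's free-RNA fractions (23.9% of all genes), and between HFD VSG and HFD sham 27 of 67 with the latter (37.9%); the cause was not tested. The signs of 5 values turned: the Paneth-like share of *Ldhb* (-0.0044 percentage points with nothing added to the counts, an alternative chosen after seeing the data), the Paneth-like share of *Pklr* (log odds difference -0.068 with at least 1500 genes per cell), *Pkm* in Paneth-like cells of HFD sham to LFD sham villi (-2.66) and in goblet-like cells of HFD VSG to HFD sham crypts (0.93), both with the study's fractions, and *Ldha* in EEC-like cells of HFD VSG to HFD sham villi (0.093 with more doublets removed). Depth limits *Slc2a1*, *Hk1* and *Ldhb*, which rest on few UMIs per library in crypt classes. No paired analysis was possible because the conditions share fewer than 2 replicate numbers, while the class contrasts were made within libraries from the start.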
